A study of Homo sapiens with 6 samples.

Results

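The integrated stress response is represented here by 10 genes chosen by name. They include ATF4, the bZIP transcription factors ATF5, DDIT3 and CEBPB, and the feedback regulators PPP1R15A and TRIB3. The others are the metabolic and receptor genes CHAC1, ASNS, PCK2 and VLDLR. The 10 genes were picked by symbol from the deposited count table, and all were found among its 33542 genes. All 10 passed the filter on low counts that left 18685 genes for testing. The libraries came from T24, an established human bladder carcinoma line, transfected with a control small interfering RNA (siNC, 3 libraries) or with one against TRAIP (siTRAIP, 3 libraries); all 6 were grown in the same serum-supplemented medium and transfected with the same lipid reagent. TRAIP encodes an E3 ubiquitin ligase, and the study asked what lies downstream of it in bladder cancer cells. A single cell line was used, the siTRAIP columns all carry 1 reagent name (siTR2), and the labels do not state whether replicates are separate cultures. The p-values therefore reflect the spread among these 6 libraries alone, which may be technical.

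In this response, kinases that sense amino acid shortage, haem shortage, double-stranded RNA or misfolded protein in the endoplasmic reticulum phosphorylate the alpha subunit of the initiation factor eIF2. General translation then slows, while a few mRNAs with upstream open reading frames, ATF4 above all, are translated better. ATF4 pairs with C/EBP proteins on composite C/EBP-ATF elements and induces genes of amino acid synthesis, transport and charging, and PPP1R15A closes the loop by directing a phosphatase back to eIF2. ATF4 is therefore controlled largely at translation, which counts of mRNA do not measure.

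The labels were checked first. TRAIP mRNA stood at 26.6, 28.3 and 28.4 CPM (counts scaled to the library total) in siNC replicates 1 to 3 and at 12.5, 14.7 and 11.6 CPM in siTRAIP, with a log2 fold change of -1.11 ± 0.07 (SE; adjusted p by edgeR = 6.74e-10). Total counts ran from 39111793 to 70439496 per library. The epithelial keratin genes KRT7, KRT8 and KRT18 had means of at least 497 CPM in siNC and at least 514 CPM in siTRAIP; KRT7 was lower in siTRAIP, at 1152 against 1308 CPM (log2 fold change -0.18, adjusted p by edgeR = 0.00375), and KRT8 and KRT18 were not called. However, 5 of 11 urothelial and epithelial markers found in the table, KRT5, TP63, UPK1A, UPK3A and GATA3, lay under 1 CPM in every library. Of the markers of other cell types, summed endothelial levels ran from 0 to 0.0361 CPM in siNC and from 0.044 to 0.132 CPM in siTRAIP. The leukocyte markers summed to 34.2 to 36.1 CPM in siNC and 38.8 to 46.1 CPM in siTRAIP, nearly all from the lysosomal gene CD68, with PTPRC at a mean of 0.0116 CPM in siNC. CD68 itself was called higher in siTRAIP (log2 fold change 0.31, adjusted p by edgeR = 9.17e-04). The part of these genes in the results was not tested. The fibroblast sum, nearly all COL6A2, was 122.2 to 124.3 CPM in siNC and 119.6 to 125.5 CPM in siTRAIP. Within it, COL1A1 had 4.26 CPM (294 reads) in siTRAIP replicate 3 against 0.923 to 1.11 CPM in the other 5 libraries, and COL3A1 had 30 reads there against 0 to 6 elsewhere; the part of this in the results was not tested. Libraries of siTRAIP replicates 1 and 2 differed less from each other (chi-square over degrees of freedom 3.2) than either did from replicate 3 (15.8 and 16.4). Pairs of siNC libraries gave 4.3 to 7.32. Replicate 3 of siTRAIP also had the highest total count (70439496), and the part of depth in these values was not tested.

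The element through which ATF4 is known to act was searched for as the core word TGATGNAA on either strand (TTNCATCA on the other) in windows from 250 bases before to 50 bases after each annotated start, taken from RefSeq (GRCh38.p14). All 10 genes had a window, 18 windows in all. ASNS and CHAC1 held the word, and the other 8 genes did not, which says only that these letters are not in these windows. Among all 27305 genes with such windows 4.46% held it, and among the 10592 of them that were tested under the same symbol 2.78%. Genes listed in the counts under an older symbol are missing from the 10592. AARS1, GARS1, CARS1 and NARS1, which held the word, are among those missing. Of 29 further known ATF4 targets with a window, chosen with the literature on this element known, 11 held it (37.9%). The 11 included other forms of the word at ATF3 (TGATGGAA), SLC7A1 (TGATGAAA), GARS1 (TTTCATCA) and SLC3A2 (TTACATCA), which are not shown. CARS1, NARS1 and FGF21 held TGATGCAA on 1 strand or the other and are not shown either. The 2 sites among the 10 genes are shown with 4 of these 11, all 4 with TGATGCAA on 1 strand or the other. Each is given on the strand of its gene with the core in capitals.
ASNS (chr7:97872458-97872487, minus strand): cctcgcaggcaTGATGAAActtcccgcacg
CHAC1 (chr15:40953251-40953280, plus strand): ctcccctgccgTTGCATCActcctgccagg
CEBPG (chr19:33374060-33374089, plus strand): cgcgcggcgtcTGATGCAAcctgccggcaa
SLC1A5 (chr19:46784893-46784922, minus strand): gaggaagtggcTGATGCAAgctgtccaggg
HERPUD1 (chr16:56931955-56931984, plus strand): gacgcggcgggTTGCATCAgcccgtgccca
AARS1 (chr16:70289675-70289704, minus strand): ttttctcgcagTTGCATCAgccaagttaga
The core read TGATGAAA at ASNS, TGATGCAA at CEBPG and SLC1A5, and TTGCATCA, the same word on the other strand, at CHAC1, HERPUD1 and AARS1. The ASNS and CHAC1 sites lie at -68 and -209 relative to the annotated start.

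Upstream start codons, the feature that lets ATF4 escape the block on translation, were counted in the annotated leader (the untranslated sequence before the coding sequence) of 1 transcript per gene in GENCODE v29. Of the 10 genes, 6 (60.0%) had at least 1 upstream ATG triplet, against 54.6% of 12344 tested protein-coding genes, and the same 6 had at least 2, against 33.3%. ATF4 had 7 in a leader of 882 bases, TRIB3 had 3, and ATF5, DDIT3, ASNS and PPP1R15A had 2 each, while CEBPB, CHAC1, PCK2 and VLDLR had none. The median leader was 328 bases among the 10 genes and 206 bases among all. The choice of transcript matters. Over annotated transcripts the number ran from 3 to 7 for ATF4 and from 0 to 3 for ASNS. It ran from 0 to 4 for CHAC1 and from 0 to 5 for PCK2. The CHAC1 leader used was only 20 bases long.

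Levels can be compared between genes only per length, for which the RPKM values of the authors were used (reads scaled to gene length and library total). PPP1R15A, whose protein brings phosphatase to eIF2, was the most abundant of the 10 at 142 ± 2.92 RPKM in siNC (SD, n = 3), above 98.3% of tested genes. ATF4 followed at 90.6 ± 5.4 RPKM. PPP1R15A and ATF4 together made up most of the summed RPKM of the 10 genes in every library, PPP1R15A 48.2% to 53.1% and ATF4 30.7% to 33.5%.

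The factors came next, DDIT3 at 21.1 ± 0.792, CEBPB at 13.6 ± 1.08 and ATF5 at 9.86 ± 0.443 RPKM (SD, n = 3 each). The enzymes and other targets lay far lower in siNC: ASNS at 2.11 ± 0.218, TRIB3 at 1.56 ± 0.284, PCK2 at 1.38 ± 0.0486, VLDLR at 0.767 ± 0.0189 and CHAC1 at 0.196 ± 0.0303 RPKM. Neighbours in this order did not overlap over the siNC libraries, except TRIB3 and PCK2. In siTRAIP the ranges of TRIB3 and PCK2 overlapped as well, and so did those of CEBPB and ATF5, at 10.5 ± 0.593 and 10.8 ± 0.612 RPKM (SD, n = 3 each). CHAC1, a glutathione-degrading enzyme that strong ATF4 activity induces, was counted 12 to 26 times per library, so that its changes could hardly be measured.

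**Figure D1:**
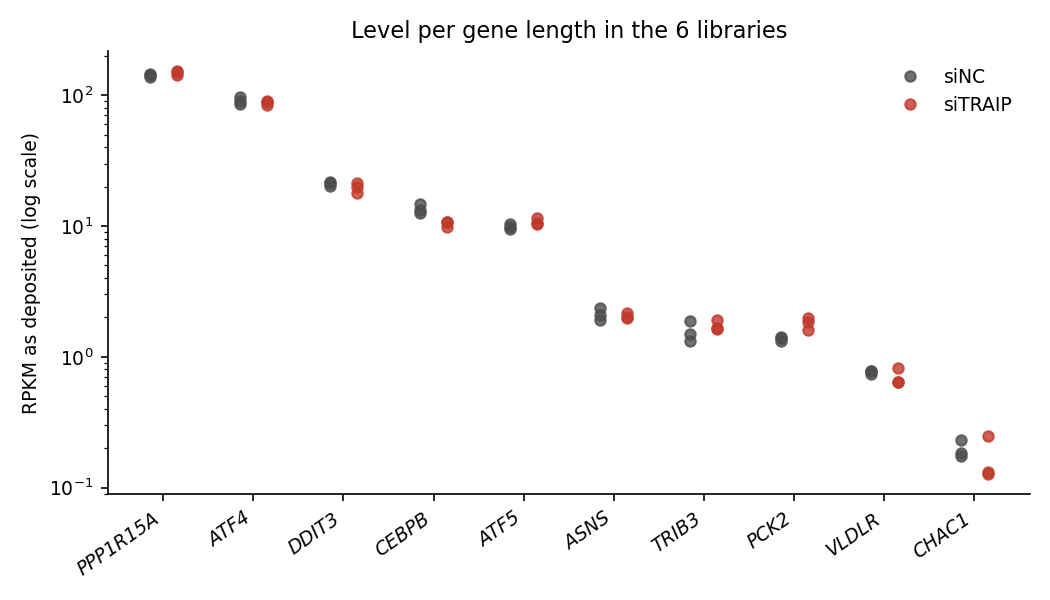
Deposited RPKM (log axis) of the 10 genes in the 3 siNC libraries (grey points) and the 3 siTRAIP libraries (red points), ordered by the siNC mean. PPP1R15A (142 RPKM) and ATF4 (90.6 RPKM) stand above the rest, and CHAC1 (0.196 RPKM) is lowest.

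After TRAIP depletion these transcripts did not move one way. By edgeR's quasi-likelihood test with Benjamini-Hochberg adjustment over all tested genes, 3 of the 10 passed an adjusted p of 0.05: PCK2 and ATF5 were higher and CEBPB was lower. Over all genes tested 12.8% passed, 7.47% higher and 5.34% lower. The median log2 fold change of the 10 genes was 0.02, and that of all tested genes was -0.002. The groups did not overlap for 4 of the 10, PPP1R15A in addition to the 3 called genes, 3 above and 1 below the controls; over all tested genes this held for 29.1%, 14.8% above and 14.4% below. In bulk RNA, a change in RNA per cell and one in the share of cells that express a gene cannot be told apart.

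ATF4, the central transcription factor (chromosome 22, 39519695 to 39522685, plus strand, GRCh38 as in the deposited table), had 210 CPM in siNC replicate 1, 223 CPM in replicate 2 and 236 CPM in replicate 3, and 231, 230 and 215 CPM in siTRAIP replicates 1 to 3. The siTRAIP libraries lay within the range of the controls. Its log2 fold change was 0.01 ± 0.05 (SE; adjusted p by edgeR = 0.894), with a 95% confidence interval of -0.08 to 0.11. A change in ATF4 mRNA beyond 1.08-fold up or 0.945-fold down is thus outside the interval. It has 4 annotated pseudogenes, of which ATF4P3 and ATF4P4 were counted at 24 to 90 reads per library against at least 8766 for ATF4.

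ATF5 (chromosome 19, 49928702 to 49933935, plus strand), a close relative of ATF4 that is likewise regulated at translation, stood at 27.1, 28.9 and 29.6 CPM in siNC and 31.4, 31.5 and 34.6 CPM in siTRAIP replicates 1 to 3. Every siTRAIP library lay above every control. Its log2 fold change was 0.19 ± 0.06 (SE; adjusted p by edgeR = 0.0282), a rise of 14.1%. Replicate 3 was the highest siTRAIP library, and without it the log2 fold change was 0.14 and was not called (edgeR adjusted p = 0.0987); the call was also lost without siNC replicate 1 (0.175) or 2 (0.0818) and with total counts in place of TMM scaling (0.138). NUP62 and IL4I1 on the opposite strand share 21.2% of the exonic bases of ATF5. The strand setting of the counting is not given in the sources used here. Neither of these genes was called (edgeR adjusted p = 0.922 and 0.273). IL4I1 nevertheless lay above all controls in every siTRAIP library, with means of 18.5 CPM in siNC and 20.0 CPM in siTRAIP (log2 fold change 0.12). Its part in the ATF5 counts was not tested.

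DDIT3 (CHOP; chromosome 12, 57516588 to 57520517, minus strand), the factor tied to cell death under prolonged stress, had 26.9, 25.3 and 26.3 CPM in siNC and 25.8, 27.6 and 23.3 CPM in siTRAIP replicates 1 to 3. The groups overlapped, and replicate 3 was the lowest library of siTRAIP. On the log2 scale it differed by -0.04 ± 0.06 (SE; 95% confidence interval -0.17 to 0.09, adjusted p by edgeR = 0.772). Genes on the opposite strand, MARS and MBD6, share 31.6% of its exonic bases, and AC022506.1 on the same strand shares 8.03%. MARS lay below all controls in every siTRAIP library (log2 fold change -0.11), and the groups overlapped for MBD6 (0.07). Neither MARS nor MBD6 was called (edgeR adjusted p = 0.149 and 0.733).

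CEBPB (chromosome 20, 50190734 to 50192689, plus strand), a C/EBP factor that pairs with ATF4 and also acts in inflammatory signalling, was the one gene of the 10 that fell. It was at 25.5, 24.5 and 28.2 CPM in siNC and at 19.7, 21.4 and 21.6 CPM in siTRAIP replicates 1 to 3, so that all siTRAIP libraries lay below all controls. This was a log2 fold change of -0.32 ± 0.06 (SE; adjusted p by edgeR = 0.00141), a fold of 0.803. It passed in all 15 alternative fits, with log2 fold changes from -0.38 to -0.26. The antisense gene CEBPB-AS1 shares 11.8% of its exonic bases, had a mean of 2.99 CPM in siNC and was not called (edgeR adjusted p = 0.834).

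PPP1R15A (GADD34; chromosome 19, 48872392 to 48876057, plus strand) had 431, 442 and 418 CPM in siNC and 488, 473 and 448 CPM in siTRAIP replicates 1 to 3. All siTRAIP libraries lay above all controls, replicate 3 by the least. The log2 fold change of 0.13 ± 0.04 (SE) missed the threshold (edgeR adjusted p = 0.0577). It passed without siTRAIP replicate 3 (0.16, adjusted p = 0.00168), with DESeq2 (adjusted p = 0.0308) and with no count filter (adjusted p = 0.0448).

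TRIB3 (chromosome 20, 362835 to 397559, plus strand), a pseudokinase that restrains ATF4 and AKT, stood at 5.04, 4.48 and 6.27 CPM in siNC and 5.79, 6.70 and 5.86 CPM in siTRAIP replicates 1 to 3. Control replicate 3 lay inside the siTRAIP range. The log2 fold change of 0.21 ± 0.12 (SE) was not called (edgeR adjusted p = 0.268), and its 95% confidence interval ran from -0.03 to 0.46. The estimate was 0.36 without siNC replicate 3 (adjusted p = 0.0682) and 0.11 without siNC replicate 2 (adjusted p = 0.69), not called in either. CHAC1 (chromosome 15, 40952962 to 40956519, plus strand) had 0.349, 0.469 and 0.369 CPM in siNC and 0.527, 0.264 and 0.276 CPM in siTRAIP. With counts this low the interval of its log2 fold change of -0.20 spanned -0.99 to 0.59 (edgeR adjusted p = 0.811), or 0.503-fold to 1.5-fold.

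**Figure D2:**
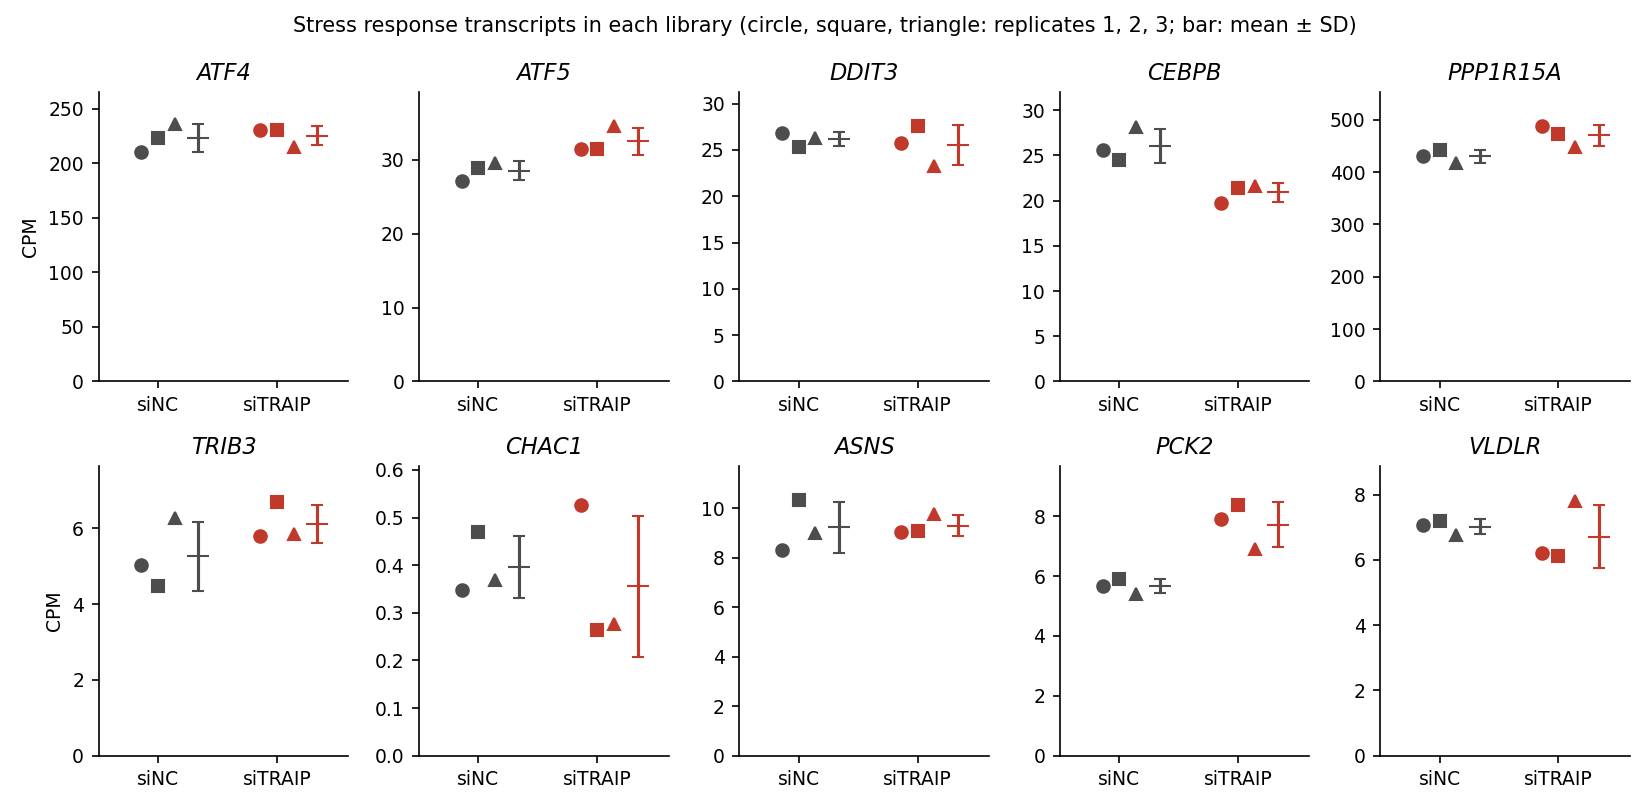
CPM on TMM-scaled library sizes of each of the 10 genes, 1 panel a gene with a linear axis from 0; grey symbols are siNC and red symbols siTRAIP libraries, circles, squares and triangles are replicates 1 to 3, and bars are mean ± SD. ATF5, PPP1R15A and PCK2 lie higher in all siTRAIP libraries, CEBPB lies lower in all of them, and the other 6 genes overlap.

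PCK2, the mitochondrial phosphoenolpyruvate carboxykinase (chromosome 14, 24094053 to 24110598, plus strand), showed the largest change of the 10. It was at 5.68, 5.90 and 5.41 CPM in siNC and 7.90, 8.37 and 6.89 CPM in siTRAIP replicates 1 to 3, with every siTRAIP library above every control. The log2 fold change was 0.44 ± 0.10 (SE; adjusted p by edgeR = 0.00335), a fold of 1.36 with a 95% confidence interval of 1.18 to 1.56. It was called with any single library left out, and missed the threshold with limma on log2(RPKM + 0.1) and on log2(RPKM + 1) (adjusted p = 0.0546 and 0.0567).

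ASNS (chromosome 7, 97852118 to 97872542, minus strand), asparagine synthetase and the classical amino acid response gene, did not follow PCK2. It had 8.33, 10.35 and 9.01 CPM in siNC and 9.06, 9.08 and 9.79 CPM in siTRAIP replicates 1 to 3, and all siTRAIP values lay inside the control range. siTRAIP minus siNC was 0.02 on the log2 scale, ± 0.09 (SE; 95% confidence interval -0.17 to 0.20, adjusted p by edgeR = 0.94). A gene on the same strand, AC079781.5, shares 44.6% of its exonic bases. The deposited counts hold no gene of that name, so it was not analysed here.

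VLDLR (chromosome 9, 2621834 to 2660053, plus strand), a lipoprotein receptor induced by ATF4 under stress, had 7.08, 7.20 and 6.77 CPM in siNC. In siTRAIP it was at 6.22 and 6.11 CPM in replicates 1 and 2, below all controls, and at 7.82 CPM in replicate 3, above them. VLDLR had a log2 fold change of -0.05 ± 0.10 (SE; adjusted p by edgeR = 0.829) with all libraries and -0.19 without replicate 3, where it was not called either (adjusted p = 0.26).

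**Figure D3:**
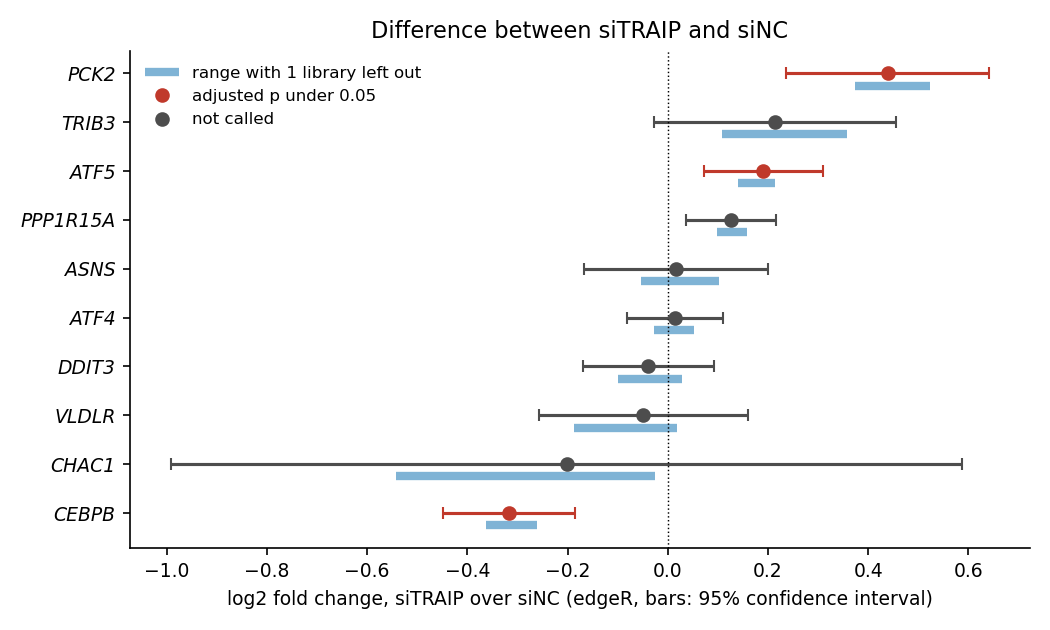
Log2 fold change of siTRAIP over siNC for the 10 genes (edgeR, points), with 95% confidence intervals (bars) and the range of the estimate when 1 library is left out (blue). PCK2 (0.44), ATF5 (0.19) and CEBPB (-0.32), in red, passed an adjusted p of 0.05; the blue ranges of ATF4, DDIT3, ASNS and VLDLR cross 0.

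Upstream of ATF4, of 13 genes for eIF2 kinases, their relays and the phosphatase 2 rose and none fell, where 12.8% of all genes were called, and the list median log2 fold change was 0.01. The kinase genes EIF2AK1 (haem-regulated), EIF2AK2 (activated by double-stranded RNA), EIF2AK3 (of the endoplasmic reticulum) and EIF2AK4 (GCN2, the amino acid sensor) had log2 fold changes of 0.01, -0.05, -0.05 and -0.02, with edgeR adjusted p from 0.496 to 0.933. PPP1R15B, which directs phosphatase to eIF2 without stress, had 0.01 ± 0.07 (SE). The rises were in PPP1CB, a catalytic subunit that can bind PPP1R15A, from 120 ± 9.32 to 150 ± 0.656 CPM (SD, n = 3 each; log2 fold change 0.33 ± 0.05 SE, adjusted p by edgeR = 4.82e-05), and in OMA1, the mitochondrial protease that starts the signal from stressed mitochondria, from 5.16 ± 0.229 to 6.47 ± 0.59 CPM (log2 fold change 0.33 ± 0.10 SE, adjusted p by edgeR = 0.0335). OMA1 missed the threshold when any library but siTRAIP replicate 2 was omitted, with adjusted p from 0.0615 to 0.13. None of the 8 genes for eIF2 and eIF2B subunits was called, with a median of 0.07. All 8 estimates were positive with TMM scaling, from EIF2S2 at 0.004 ± 0.04 (SE) to EIF2B1 at 0.12 ± 0.05 (SE, adjusted p by edgeR = 0.123). Total counts in place of TMM scaling shifted the median over all genes to -0.06, and the signs of these 8 were not examined there.

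Among 11 tested genes for factors of the bZIP class, several of which can pair with ATF4, 3 rose and 2 fell. Over all genes tested, 12.8% were called. NFE2L1, a regulator of proteasome genes, rose from 379 ± 8.84 to 525 ± 10 CPM (SD, n = 3 each), a log2 fold change of 0.47 ± 0.04 (SE; adjusted p by edgeR = 2.10e-08). BATF3 rose by 0.61 ± 0.12 and JDP2 by 0.25 ± 0.06 (SE) on the same scale. The AP-1 gene FOSL1 fell by 0.22 ± 0.04 (SE) and NFE2L2, the antioxidant response factor, by 0.18 ± 0.05 (SE) on the log2 scale. Without siTRAIP replicate 1, JDP2 and NFE2L2 missed the threshold (adjusted p = 0.0526 and 0.0547), which left 3 calls in this list; NFE2L2 also missed it without siNC replicate 3 (0.0587). CEBPG, the C/EBP protein that pairs with ATF4 in the amino acid response, averaged 31.9 and 31.8 CPM in the control and siTRAIP libraries, and ATF3 2.93 and 3.07 CPM; neither was called (edgeR adjusted p = 0.95 and 0.848).

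Of 37 tested further ATF4 targets, 2 rose, 7 fell and 28 were not called, with a median log2 fold change of 0.02. Over all genes tested, 7.47% were called higher and 5.34% lower. CEBPG and ATF3 are counted both here and in the bZIP list. The falls included the cystine transporter gene SLC7A11 and its partner subunit SLC3A2, the leucine transporter gene SLC7A5 and the autophagy receptor gene SQSTM1. The other falls were in STC2, KDM7A and EIF4EBP1. The transporter genes SLC7A1, SLC38A2 and SLC1A5 of the same list did not fall. Their log2 fold changes were 0.12, 0.11 and 0.03, and none was called. Both of these groups of genes were named after their values were seen. SQSTM1 went from 282 ± 6.15 to 199 ± 9.63 CPM (SD, n = 3 each; log2 fold change -0.50 ± 0.04 SE, adjusted p by edgeR = 2.10e-08). SLC7A11 was at 119, 112 and 108 CPM in siNC and at 86.1, 86.2 and 89.5 CPM in siTRAIP, and SLC7A5 at 129, 128 and 136 against 94.5, 105 and 101 CPM. SLC3A2, which was named after its value was seen, had a log2 fold change of -0.21 ± 0.04 (SE; adjusted p by edgeR = 0.00203). DDIT4, an mTORC1 inhibitor gene that also answers to hypoxia and glucocorticoids, rose from 23.5 ± 0.43 to 35.5 ± 2.17 CPM (log2 fold change 0.59 ± 0.06 SE, adjusted p by edgeR = 9.73e-08). SARS1, a seryl-tRNA synthetase gene listed under its older symbol SARS, rose by 0.13 ± 0.04 (SE; adjusted p by edgeR = 0.0272), but not when any library but siTRAIP replicate 3 was omitted (adjusted p from 0.0522 to 0.138).

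Of the 12 tested genes among the 10 and the further targets that held the core word, 1 was called (8.33%), SLC3A2, which fell. Of the 26 tested ones with a window that did not hold it, 4 rose and 5 fell (34.6%). For these genes older symbols were matched as well. Among all genes with windows that were tested under the same symbol, without matching older ones, 14.6% of 294 genes with the word and 16.2% of 10298 genes without it were called. The difference between these shares was not tested.

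Of 7 tested genes downstream of DDIT3 and of cell death, 1 was called, where 12.8% of all genes were called, and their median absolute log2 fold change of 0.123 was close to the 0.125 of all tested genes. GADD45A fell by 0.15 ± 0.05 (SE; adjusted p by edgeR = 0.0388) and the other 6 were not called; the list median was -0.04. GADD45A no longer passed when any library but siTRAIP replicate 3 was omitted (adjusted p from 0.0777 to 0.207). Its siTRAIP values were 202 and 208 CPM in replicates 1 and 2 and 231 CPM in replicate 3, against 234 to 242 CPM in siNC.

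In the 2 other arms of the unfolded protein response, which IRE1 and ATF6 control, 3 of 18 genes rose and 3 fell. Over all genes tested, 12.8% were called. The list median was -0.01, and omitting any 1 siNC replicate left 3 calls. The IRE1 gene itself, ERN1, fell from 8.80 ± 0.639 to 5.99 ± 0.336 CPM (SD, n = 3 each; log2 fold change -0.56 ± 0.09 SE, adjusted p by edgeR = 1.54e-04), and DNAJB9, a co-chaperone gene induced through IRE1, fell by 0.32 ± 0.07 (SE; adjusted p by edgeR = 0.00302). ATF6 rose by 0.21 ± 0.05 (SE; adjusted p by edgeR = 0.0114) and the chaperone genes HSP90B1 and HSPA5 by 0.18 ± 0.04 (SE) and 0.13 ± 0.04 (SE). ATF6 was not called without siNC replicate 2 or 3 (adjusted p = 0.058 and 0.0794) or with total counts in place of TMM scaling (0.0682), nor HSP90B1 without siNC replicate 1 (0.0556). The HSPA5 call (edgeR adjusted p = 0.0313) was lost without siNC replicate 1, 2 or 3 or siTRAIP replicate 1, with adjusted p from 0.0601 to 0.177. The remaining fall was in SYVN1, by 0.15 ± 0.05 (SE, adjusted p by edgeR = 0.0335). SYVN1 was named after its value was seen, and its call under the alternatives was not examined. XBP1, the factor that IRE1 activates, stood at 169 and 160 CPM in siNC replicates 1 and 2 but at 48.7 CPM in siNC replicate 3, and at 148, 153 and 147 CPM in siTRAIP. Its log2 fold change was 0.25 ± 0.52 (SE) with all libraries and -0.14 ± 0.05 (SE; adjusted p by edgeR = 0.0652) without siNC replicate 3.

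**Figure D4:**
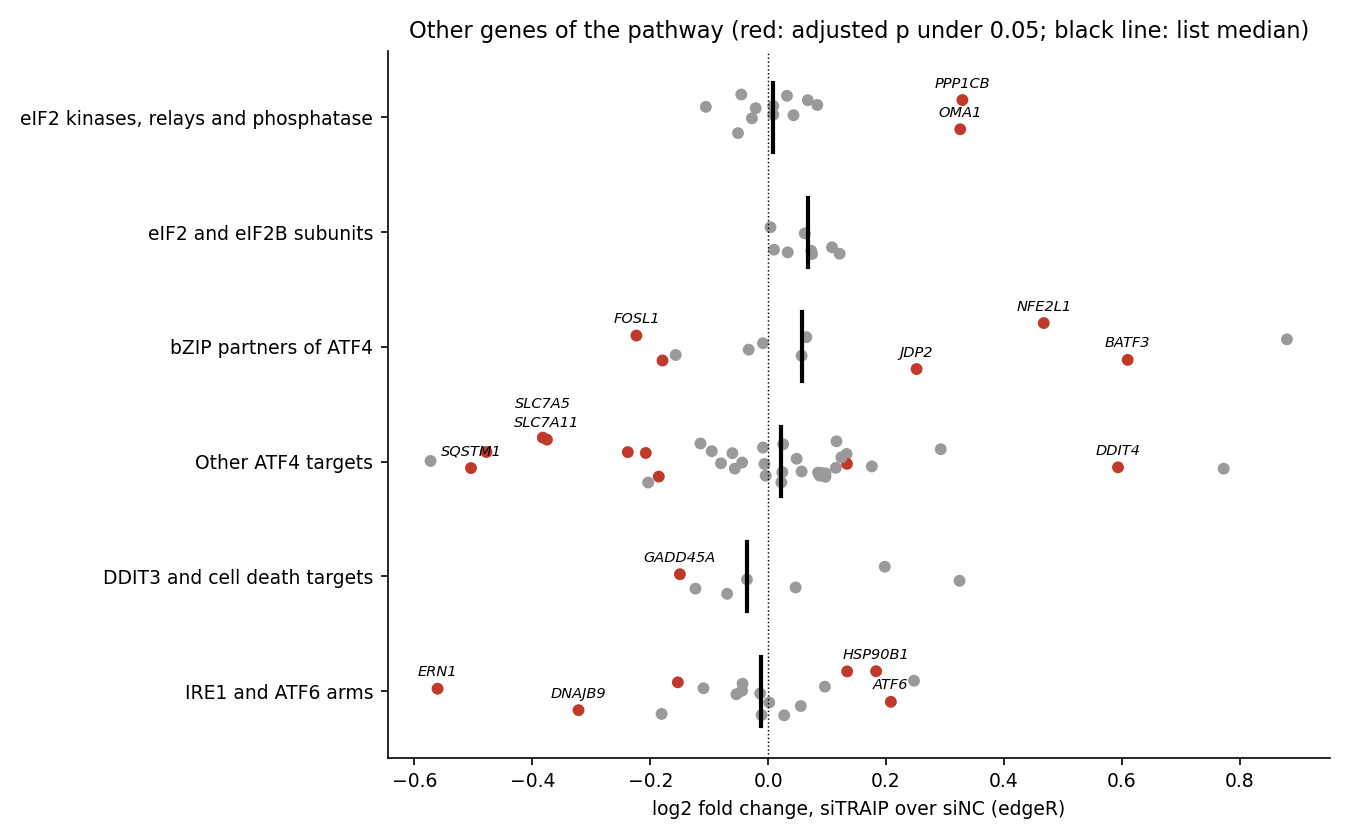
Log2 fold change of siTRAIP over siNC (horizontal axis) for the tested genes of 6 lists around ATF4; red points passed an edgeR adjusted p of 0.05, black lines are list medians, and vertical spread within a list only separates points. Medians lie between -0.04 and 0.07, with called genes on both sides of 0 in the bZIP, target and unfolded protein response lists.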

How the data were processed

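The 6 libraries were grouped, and their replicate numbers taken, from the sample titles. Per the labels' protocols, libraries were made from TRIzol-extracted RNA with a kit that keeps strand. The deposited tables hold raw counts per gene and the authors' RPKM values on the same genes. Tools listed in the submitters' processing notes are featureCounts, Trimmomatic 0.36 and Subread 1.5.1, with the build GRCh38. The sources used here do not give the aligner, annotation or strand setting.

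Counts were tested with edgeR 4.0.16 in R 4.3.3: filterByExpr, TMM factors, a robust quasi-likelihood fit over 18685 genes (common biological coefficient of variation 5.73%), 2-sided F-tests and Benjamini-Hochberg adjustment, with a threshold of 0.05. The SE is the log2 fold change divided by the square root of F. For CPM, library totals over the tested genes were multiplied by the TMM factors. Of counts from 1 to 10, 70.2% were even, against 50.8% of those above 1000; if mates were counted separately, low counts are less precise than they look.

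Members and gene lists were chosen with earlier results of these data known. Named genes are the 10 members, TRAIP, 10 pathway genes fixed by name, and in each list the up to 4 called genes with the smallest adjusted p plus up to 2 called against the list's direction. Alternatives were DESeq2 1.42.0, other scalings and filters, limma 3.58.1 on deposited RPKM, the replicate number as a block, robust=FALSE, and each library left out. Exon overlaps and leaders came from GENCODE v29.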

Additional observations from a re-analysis of the deposited data

How the results depend on the processing

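The TRAIP log2 fold change lay between -1.21 and -0.99 over 15 alternatives and passed in each. Of 148 values of the 10 stress response genes under these alternatives, 122 kept their sign and their call, 8 lost the call, 3 gained it and 15 changed sign, the last all in genes that were not called. Of 390 values of the other named genes, 327 kept both, 49 lost the call and 14 changed sign. The cause of these changes was not tested. CHAC1, counted 12 to 26 times per library, did not pass the filter of 1 CPM in 3 libraries. DESeq2 gave it no adjusted p, so that fit is not among its values either.

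With limma on log2(RPKM + 0.1), 1520 genes were called, 461 of them higher, and with log2(RPKM + 1) 1519 and 450. Of the 10 genes, 1 was called on both scales, CEBPB, and 0 were called higher. Total counts without TMM factors gave 838 genes higher and 2050 lower, against 1396 and 997, and shifted the median over all genes to -0.06 (log2); 1 of the 10 genes (PCK2) was then called higher. Under total counts and both RPKM scales the eIF2 kinase list had 1 call and 1 further ATF4 target was called higher. The kinase list also had 1 call with DESeq2, and the DDIT3 list 2 calls with total counts and 0 with robust=FALSE.

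With 1 library left out, which leaves fewer samples, the counts ran from 1480 to 2622 genes called, 878 to 1471 higher and 602 to 1151 lower, the lowest without siNC replicate 1. They ran from 2 to 3 of the 10 genes (1 to 2 higher, 1 lower), 8 to 11 further ATF4 targets (1 to 3 higher, 7 to 8 lower), 3 to 6 bZIP genes, 3 to 7 IRE1 and ATF6 genes, 1 to 2 kinase genes and 0 to 1 in each of the eIF2 and DDIT3 lists. TRAIP ran from -1.21 to -1.02.

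Estimates near 0 changed sign. On total counts, log2(RPKM + 0.1) and log2(RPKM + 1) in turn, the log2 fold change of ATF4 was -0.0456, -0.0442 and -0.0438, of ASNS -0.0426, -0.0414 and -0.0301, of EIF2AK1 -0.0516, -0.0516 and -0.0499 and of PPP1R15B -0.0513, -0.059 and -0.0483; ATF3 was at -0.00281 on total counts. With 1 library left out, values ran from -0.0282 to 0.0526 for ATF4, -0.0988 to 0.0284 for DDIT3, -0.0539 to 0.102 for ASNS, -0.188 to 0.018 for VLDLR, -0.00208 to 0.0279 for EIF2AK1, -0.0818 to 0.0645 for PPP1R15B, -0.0294 to 0.0243 for CEBPG and -0.142 to 0.516 for XBP1.

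The labels do not tie equal replicate numbers together, and libraries 1, 2 and 3 of both groups had deviations from their group means that correlated at 0.0273, -0.106 and -0.0097. Adding a replicate block called 2145 genes, 1279 higher and 866 lower, and the same 3 of the 10 genes passed. OMA1, SARS1, GADD45A and HSPA5 did not pass in that fit (adjusted p = 0.0508, 0.0635, 0.054 and 0.0717), which left 1 kinase gene, 1 further target higher and 0 DDIT3 list genes.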
